A study of Mus musculus with 6 samples.

Results

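Respiratory complexes II, III and IV carry electrons in the inner mitochondrial membrane. Complex II (succinate dehydrogenase) takes electrons from succinate in the TCA cycle and passes them to ubiquinone. Complex III (the cytochrome bc1 complex) hands them from ubiquinol to cytochrome c, and complex IV (cytochrome c oxidase) gives them to oxygen. Complexes III and IV pump protons, complex II does not, and the ATP synthase uses the proton gradient to make ATP. Each complex needs dedicated assembly factors that insert flavin, iron-sulfur clusters, haem or copper.

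Transcript levels of these genes were compared between mouse Th17 cultures grown for 48 h with oligomycin (2.5 ng/ml), an inhibitor of the ATP synthase, and cultures grown with the vehicle DMSO, with 3 RNA-seq libraries each. Both groups began as naive CD4 T cells and were stimulated with plate-bound anti-CD3e (10 µg/ml) and with anti-CD28 (1 µg/ml). The medium of both held 3 cytokines, of which IL-6 was given at 20 ng/ml, IL-23 at 10 ng/ml and TGF-β1 at 2.5 ng/ml. The study asked how Th17 differentiation depends on mitochondrial oxidative phosphorylation. The labels give neither strain, age nor sex of the mice. They do not say whether the 3 libraries of a group came from separate cultures or animals. The p-values thus set a group difference against the spread between these libraries, which may be technical. Sample titles share 3 numbers across the groups. Nothing in the sources used here ties those numbers to the deposited columns, so any pairing was left out of the fit.

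The genes were chosen by name: rows of the deposited table for Sdha to Sdhd and Sdhaf genes, Uqcr, Uqcc and Cox genes, and Cyc1, Cycs, Bcs1l, Surf1 and Sco1. They were 42 of 10041 rows, with 6 for complex II, 11 for complex III, 1 for cytochrome c and 23 for complex IV. The remaining row, Cox4nb, matches by name alone: RefSeq lists it as an older name of Emc8, a gene of the endoplasmic reticulum membrane complex and the neighbour of Cox4i1, so it was counted among the 42 rows but in no complex. Sco2 stands in a row shared with Tymp, which the choice by name does not take, and is described apart. The table has 0 rows from the mitochondrial genome, and the subunits encoded there (cytochrome b and the catalytic core of complex IV) are not analysed here.

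Values are FPKM, fragments scaled by the length of the transcript and by the size of the library, as the authors deposited them. The sequencing depth behind them is unknown. Library medians over all rows ran from 13.8 to 14.7 FPKM, while library sums differed more, from 1434028 to 2103404 FPKM. Changes of abundant rows may thus depend on the scaling, and values under quantile normalization are given below. Pearson correlations of log2(FPKM + 1) across genes ran from 0.940 to 0.962 within oligomycin, 0.963 to 0.969 within DMSO and 0.890 to 0.937 between the groups. Of the 8 Th17 and CD4 T cell markers checked, 7 had a row: Cd3e, Cd3g and Cd4 were not called, and Il17a, Il17f, Il23r and Ccr6 were lower with oligomycin. Il23r reached 1 FPKM in DMSO libraries alone, so it had to differ in order to be tested. The summed level of these 7 markers was 573 to 696 FPKM in oligomycin libraries, against 1949 to 2147 FPKM in DMSO libraries. Of markers of other cells, 0 of 5 for B cells and 0 of 6 for myeloid cells had a row. For CD8 T cells 1 of 2 had a row, Cd8b1, at 2.41 to 3.30 FPKM with oligomycin and 2.63 to 3.12 FPKM with DMSO. For NK cells 1 of 3 had a row, Klrd1, at 5.53 to 23.8 FPKM with oligomycin and 12.8 to 34.6 FPKM with DMSO. Their part in the results was not tested.

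Most subunit transcripts of complexes II, III and IV had a lower fitted level with oligomycin, by modest amounts, and 9 of 27 passed the test as lower. The members farthest from 0 were complex IV isoforms, Cox6a2 higher and Cox7a1 lower. Changes were fitted on log2(FPKM + 1) with limma over all 9986 tested genes, and a gene was called where its Benjamini-Hochberg adjusted p was under 0.05. Of the 42 rows, all of which passed the filter on low values, 10 fell, 3 rose and 29 were not called. These counts, the 9 of 27 above and the counts without overlap below include Cox6a2 (higher) and Cox6b2 (lower). Both passed that filter through 1 group alone, so they had to differ in order to be tested. The count of 10 was 18 without oligomycin replicate 1 and 5 to 7 without any of the other 5 libraries (lowest without DMSO replicate 3). That is 23.8% lower and 7.14% higher, where 16.1% of all tested genes were lower and 14% higher (30.2% in either direction). The median log2 change was -0.25, against -0.0044 over all genes tested, and under quantile normalization -0.087, against 0.03. Groups did not overlap for 18 rows with oligomycin below DMSO (42.9%, against 24.3% of all tested genes) and for 3 with oligomycin above (7.14%, against 23.1%; 47.3% of all tested genes in either direction). FPKM measures a share of the RNA sequenced, and in a bulk culture fewer cells of a type and less RNA per cell cannot be told apart.

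By complex, the median log2 change was -0.14 over the 6 rows of complex II, -0.33 over the 11 of complex III and -0.25 over the 23 of complex IV. Under quantile normalization these medians were -0.0031, -0.15 and -0.10, and the complex IV median was -0.14 without oligomycin replicate 2. Of 27 subunit rows 24 had a log2 change below 0, with a median of -0.33, where 5029 of all 9986 tested genes lay below 0. Called lower were 9 (33.3%) and higher 2 (7.41%), with Cox6b2 and Cox6a2 among them. Of all tested genes 16.1% were lower and 14% higher. Under quantile normalization 20 of the 27 stayed below 0, and Sdha, Sdhc, Cox4i1 and Cox7b turned above it. Of 13 assembly rows, 6 lay below 0 and 7 above, 1 (7.69%) was called in each direction, and the median was 0.03. Whether subunits and assembly factors differed from each other was not tested. The 40 Nduf rows other than Ndufa4, mostly genes of complex I, had a median of -0.20, with 2 (5%) called in each direction. The 16 Atp5 rows of the ATP synthase had a median of -0.30, with 5 called lower (31.25%) and 1 higher (6.25%). Under quantile normalization these medians were -0.06 and -0.13.

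**Figure D1:**
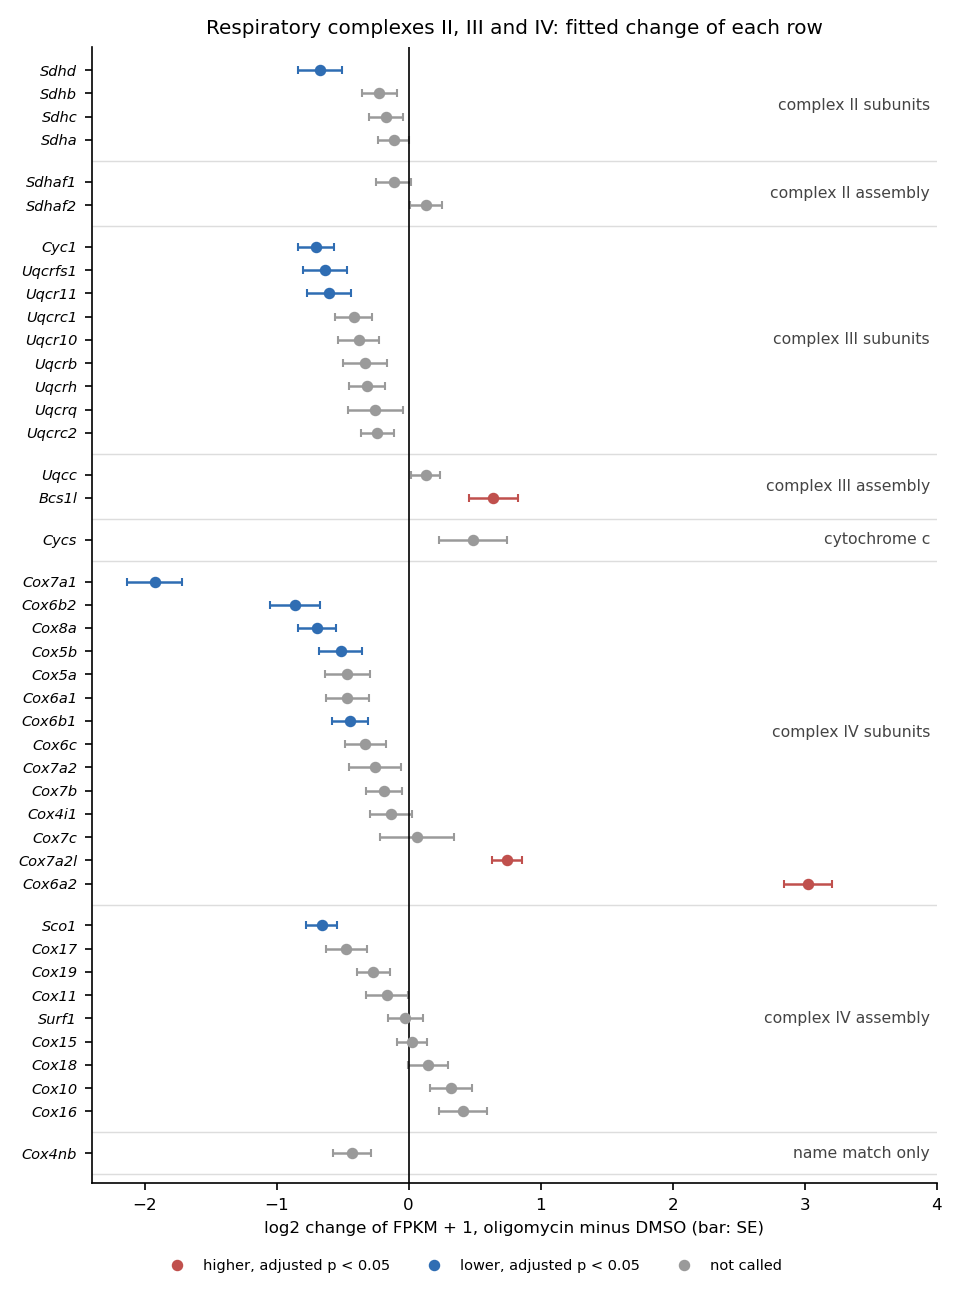
Fitted log2 change of FPKM + 1 (oligomycin minus DMSO, bars SE, 3 libraries per group) of the 42 rows, in blocks by role and ordered by change within a block; red is called higher, blue called lower, grey not called. All 9 complex III subunits lie left of 0, and Cox7a1 (-1.92) and Cox6a2 (3.03) lie farthest out.

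Promoters of these genes were compared for sites known from nuclear genes of respiration. RefSeq start sites (GRCm38.p6, 250 bases before to 50 after the start) were matched for 31 of the 42 rows. The ETS site of GABPA (also named NRF-2), CCGGAAG on either strand, occurred in 15 of 31 (48.4%), against 9.12% of 27025 promoters of all genes and 21.3% of the 7104 promoters of genes tested here. It was found in 5 of 9 promoters of rows called lower (Cox6b1, Cox8a, Sco1, Sdhd and Uqcr11), in 1 of 2 called higher (Bcs1l) and in 9 of 20 not called. The site of NRF-1 occurred in 4 (12.9%; 4.78% of all promoters and 12.2% of those of tested genes), namely Sdhd, Sdha, Uqcrc1 and Cox6a1. The YY1 letters GCCATNTT occurred in 9.68% (6.23% and 10.2%), the HIF-1 core ACGTG in 29% (19.7% and 27.9%), and the ATF4 letters TGATGNAA in 0 of 31 (4.06% and 2.08%). Both strands were searched and each motif was counted on its own, also where matches overlapped. A match describes the letters in this window and does not show binding. 4 promoters are shown, 5′ to 3′ on the strand of the gene and with matches to any of the 5 motifs in capitals: Sdhd and Cox8a, which fell and hold ETS sites, Cox7a1, which fell farthest and holds a HIF-1 core alone, and Cox7a2l, which rose and holds none of the 5.
Sdhd, chr9:50603800-50604099, minus strand: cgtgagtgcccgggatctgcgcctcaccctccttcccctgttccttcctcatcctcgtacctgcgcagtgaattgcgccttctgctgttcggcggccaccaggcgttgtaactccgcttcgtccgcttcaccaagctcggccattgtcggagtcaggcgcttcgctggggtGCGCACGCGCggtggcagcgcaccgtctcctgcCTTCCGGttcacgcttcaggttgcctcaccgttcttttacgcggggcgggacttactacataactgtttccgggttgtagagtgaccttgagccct
Cox8a, chr19:7217567-7217866, minus strand: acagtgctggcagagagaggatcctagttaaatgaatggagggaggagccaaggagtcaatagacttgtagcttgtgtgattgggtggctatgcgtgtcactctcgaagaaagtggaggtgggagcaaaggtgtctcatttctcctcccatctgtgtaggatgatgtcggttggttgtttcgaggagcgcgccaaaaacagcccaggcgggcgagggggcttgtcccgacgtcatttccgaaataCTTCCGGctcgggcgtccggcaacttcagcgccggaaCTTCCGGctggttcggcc
Cox7a1, chr7:30183921-30184220, plus strand: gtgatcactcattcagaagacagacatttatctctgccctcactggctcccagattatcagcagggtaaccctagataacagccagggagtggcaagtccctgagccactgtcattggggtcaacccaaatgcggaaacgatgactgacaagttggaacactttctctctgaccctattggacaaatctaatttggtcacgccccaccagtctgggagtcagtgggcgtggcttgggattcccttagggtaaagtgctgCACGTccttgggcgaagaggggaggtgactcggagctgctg
Cox7a2l, chr17:83514284-83514583, minus strand: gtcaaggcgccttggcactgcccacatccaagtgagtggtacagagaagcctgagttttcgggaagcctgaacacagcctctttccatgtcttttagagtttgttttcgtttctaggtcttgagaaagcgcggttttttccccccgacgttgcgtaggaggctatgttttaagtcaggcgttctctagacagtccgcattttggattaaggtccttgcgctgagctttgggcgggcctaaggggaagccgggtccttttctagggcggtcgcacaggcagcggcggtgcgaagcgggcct
In Sdhd the NRF-1 site GCGCACGCGC lies upstream of the ETS site, which reads CTTCCGG on this strand. Cox8a holds 2 ETS sites, and HIF-1 core letters in Cox7a1 read CACGT on this strand.

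Only Sdhd moved past the threshold in complex II. Sdhd (XLOC_021713, chromosome 9, 50596340 to 50603849, GRCm38), which encodes a membrane anchor of the complex with part of its ubiquinone site, had 117, 75.3 and 97.7 FPKM in oligomycin replicates 1, 2 and 3, against 142, 153 and 161 FPKM in DMSO replicates 1, 2 and 3. Every oligomycin library lay below every DMSO library, with replicate 2 lowest. Its mean was 96.7 ± 20.9 FPKM with oligomycin and 152 ± 9.48 FPKM with DMSO (SD, n = 3 each). Its log2 change was -0.67 (SE 0.17, limma adjusted p = 0.0177), which is 1.57-fold lower, and the call was lost without DMSO replicate 2 (adjusted p = 0.0506) or DMSO replicate 3 (adjusted p = 0.0668; range over all alternatives 0.00544 to 0.0668). Sdhc, which encodes the partner anchor, stood at 124, 101 and 117 FPKM with oligomycin and 141, 122 and 122 FPKM with DMSO. Its groups overlapped, and its log2 change of -0.17 was not called (adjusted p = 0.329). Sdhb, the iron-sulfur subunit, had 157, 123 and 134 FPKM with oligomycin and 163, 169.6 and 149 FPKM with DMSO, also overlapping (log2 change -0.22, adjusted p = 0.232). Sdha, the flavoprotein that oxidizes succinate, held 106, 112 and 92.6 FPKM with oligomycin and 115, 110.4 and 109.5 FPKM with DMSO. Oligomycin replicate 2 lay inside the DMSO range of Sdha, and the log2 change was -0.11 (adjusted p = 0.490). Under quantile normalization the changes of Sdha and Sdhc turned to 0.08 and 0.01.

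Assembly factors of complex II showed no call. Sdhaf1, which helps to load the iron-sulfur clusters of Sdhb, had 39.3, 36.2 and 48.5 FPKM with oligomycin and 47.7, 41.5 and 44.5 FPKM with DMSO (log2 change -0.11, limma adjusted p = 0.541). Sdhaf2, which attaches the flavin to Sdha, had 22.7, 20.4 and 20.3 FPKM with oligomycin and 17.5, 21.5 and 18.8 FPKM with DMSO (log2 change 0.13, adjusted p = 0.430). In both, the libraries of the groups overlapped. The factors later named Sdhaf3 and Sdhaf4 stood under the older symbols Acn9 and 1110058L19Rik, outside the choice by name, and were not called either (log2 changes of 0.46 and 0.08).

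In complex III all 9 subunit rows had a log2 change below 0, also under quantile normalization. Called lower were 3 (33.3%, against 16.1% of all tested genes). The median was -0.38 and the range -0.70 to -0.24. Under that normalization the median was -0.18, the range -0.55 to -0.05, and Cyc1 was the 1 subunit still called. Cyc1 (XLOC_006749, chromosome 15, 76343523 to 76345934), which encodes cytochrome c1, the subunit that donates electrons to cytochrome c, had 66.9, 55.5 and 48.2 FPKM with oligomycin, against 93.7, 89.6 and 93.2 FPKM with DMSO. The DMSO libraries were close together, and all oligomycin libraries lay well below them. Its mean was 56.8 ± 9.41 FPKM with oligomycin and 92.2 ± 2.25 FPKM with DMSO (SD, n = 3 each). The log2 change was -0.70 (SE 0.14, limma adjusted p = 0.00663), a 1.62-fold lower mean, and the call held in every alternative tried (adjusted p 0.00227 to 0.0305). Uqcrfs1 (XLOC_005415, chromosome 13, 30540312 to 30545316), the Rieske iron-sulfur protein, had 147, 101 and 128 FPKM with oligomycin, against 224, 177 and 182 FPKM with DMSO (log2 change -0.63, SE 0.17, adjusted p = 0.0228). Uqcr11 (XLOC_002103, chromosome 10, 80402997 to 80406821), a small accessory subunit, had 157, 121 and 122 FPKM with oligomycin, against 183, 244 and 182 FPKM with DMSO (log2 change -0.60, SE 0.17, adjusted p = 0.0273). For both genes the groups did not overlap and oligomycin replicate 2 was lowest. Leaving out 1 library ended the call of Uqcrfs1 for 2 libraries of each group (DMSO replicates 1 and 3, oligomycin replicates 2 and 3, with adjusted p = 0.0835, 0.0558, 0.0524 and 0.0591), and likewise that of Uqcr11 (DMSO replicates 2 and 3, oligomycin replicates 2 and 3, 0.0854, 0.0519, 0.0675 and 0.0915). Both were also lost under quantile normalization (0.0567 for Uqcrfs1 and 0.05005 for Uqcr11). Over all alternatives the adjusted p ran over 0.0112 to 0.0835 for Uqcrfs1 and 0.0121 to 0.0915 for Uqcr11.

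The other 6 complex III subunits were not called. They were the core proteins Uqcrc1 and Uqcrc2 and the accessory subunits Uqcr10, Uqcrb, Uqcrh and Uqcrq, and their means ran from 1.17-fold to 1.33-fold lower. Uqcrc1 came nearest to the threshold, at 111, 91.9 and 83.3 FPKM with oligomycin, against 127, 138 and 116 FPKM with DMSO (log2 change -0.42, limma adjusted p = 0.0535). Its groups did not overlap, as was so for Uqcr10 and Uqcrh. Uqcrc2, with the smallest change, had 134, 106 and 117 FPKM with oligomycin and 146, 139 and 134 FPKM with DMSO (log2 change -0.24, adjusted p = 0.187), and oligomycin replicate 1 reached the DMSO range. Without oligomycin replicate 1, Uqcrc1, Uqcr10 and Uqcrb were called lower (adjusted p = 0.0159, 0.0333 and 0.0237). Uqcrc1 was also called lower without rows sharing a locus (limma adjusted p = 0.0441). Over all alternatives the adjusted p of Uqcrc1 was 0.0159 to 0.169, that of Uqcr10 0.0333 to 0.366 and that of Uqcrb 0.0237 to 0.398.

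The 2 complex III assembly rows lay on the other side of 0. Bcs1l (XLOC_000194, chromosome 1, 74588361 to 74592443), a chaperone that inserts the Rieske protein Uqcrfs1 into the complex, had 10.2, 9.83 and 9.43 FPKM with oligomycin, against 6.78, 7.31 and 4.15 FPKM with DMSO. The oligomycin libraries were close together and above every DMSO library, of which replicate 3 was lowest. Its mean was 9.82 ± 0.385 FPKM with oligomycin and 6.08 ± 1.69 FPKM with DMSO (SD, n = 3 each). Bcs1l rose by 0.64 on the log2 scale (SE 0.18, limma adjusted p = 0.0309), while its substrate gene Uqcrfs1 fell. The call was lost without DMSO replicate 3 (log2 change 0.43, adjusted p = 0.0717) and without oligomycin replicate 1, 2 or 3 (0.0635, 0.0591 and 0.0716; range over all alternatives 0.0231 to 0.0717). Uqcc, now named Uqcc1 and needed to make cytochrome b, had 14.1, 12.7 and 14.5 FPKM with oligomycin and 13.1, 12.6 and 11.8 FPKM with DMSO (log2 change 0.13, adjusted p = 0.406), with overlapping groups.

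Cytochrome c is the small carrier between complexes III and IV. Its gene Cycs was listed at 1.09, 3.02 and 2.06 FPKM with oligomycin and 0.789, 1.41 and 1.15 FPKM with DMSO, and was under 5 FPKM in every library, as was Cox6b2 alone among the other members. Groups overlapped, and the log2 change of 0.49 was not called (limma adjusted p = 0.180). Without oligomycin replicate 1 it was called higher (log2 change 0.74, adjusted p = 0.0350; 0.0350 to 0.451 over all alternatives). Mammalian genomes hold processed copies of Cycs, and how reads with several matches were counted is not given in the sources used here, so the level of this row is uncertain.

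In complex IV the genes with the largest changes were isoforms known from muscle or testis, and most other subunits had a log2 change below 0. Cox6a2 passed the filter on low values through the oligomycin libraries alone, and Cox6b2 through the DMSO libraries alone, so both had to differ in order to be tested, and their calls add no weight to a count. Of the 12 other subunit rows 4 fell, 1 rose and 7 were not called, where 16.1% of all tested genes were lower and 14% higher. Leaving out the isoforms Cox6a2, Cox6b2 and Cox7a1 and the supercomplex factor Cox7a2l, 3 of 10 rows fell and 0 rose in the limma test, with a median of -0.39 and a range of -0.70 to 0.06. Under quantile normalization 1 of the 10, Cox8a, was called, the median was -0.17, and 3 (Cox4i1, Cox7b and Cox7c) lay above 0.

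Among these 10, Cox8a (XLOC_010300, chromosome 19, 7215158 to 7217616), a small subunit in the membrane part, had 221, 179.8 and 165 FPKM with oligomycin, against 319.5, 312 and 282 FPKM with DMSO. All 3 oligomycin libraries lay clear of the DMSO range. Its mean was 189 ± 29.1 FPKM with oligomycin and 304 ± 19.9 FPKM with DMSO (SD, n = 3 each). Cox8a fell by 0.70 (SE 0.15, limma adjusted p = 0.00886, 1.61-fold lower), a call that held in every alternative tried (adjusted p 0.00322 to 0.0381). Cox5b, the zinc-binding subunit on the matrix side, had 92.7, 68.4 and 66.7 FPKM with oligomycin, against 101, 125 and 98.6 FPKM with DMSO (log2 change -0.52, SE 0.16, adjusted p = 0.0435). Cox6b1, which faces the site where cytochrome c docks, had 392, 355 and 354 FPKM with oligomycin, against 495, 549 and 459 FPKM with DMSO (log2 change -0.45, SE 0.14, adjusted p = 0.0379). Groups did not overlap for either gene, and in Cox5b oligomycin replicate 1 came near the DMSO range. The call of Cox5b was lost under quantile normalization (adjusted p = 0.0822), without the intensity trend (0.0514) and on leaving out each library in turn, save oligomycin replicate 1 (adjusted p between 0.0754 and 0.137). Cox6b1 was lost under quantile normalization (log2 change -0.25, adjusted p = 0.132) and in the same 5 fits (between 0.0727 and 0.123). Over all alternatives the adjusted p ran over 0.00988 to 0.137 for Cox5b and 0.0275 to 0.132 for Cox6b1.

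The remaining 7 were not called. Cox4i1, the regulatory subunit that binds ATP and the most abundant member by FPKM, had 748, 619 and 681 FPKM with oligomycin and 830.2, 766 and 656 FPKM with DMSO (log2 change -0.13, limma adjusted p = 0.538). Its groups overlapped, and under quantile normalization the change was 0.09. Cox5a, the partner of Cox5b on the matrix side, had 257, 172 and 184 FPKM with oligomycin and 276, 302 and 257 FPKM with DMSO (log2 change -0.46, adjusted p = 0.0716). Here oligomycin replicate 1 lay inside the DMSO range and the other two far below it, and without that library Cox5a was called lower (log2 change -0.64, adjusted p = 0.00825; 0.00825 to 0.194 over all alternatives). Cox6a1 and Cox6c, called lower in that setting as well, had log2 changes of -0.46 and -0.33 with all libraries, Cox7a2 and Cox7b -0.25 and -0.18. Cox6a1 was also called lower without rows sharing a locus (limma adjusted p = 0.0495). Cox7c was spread widely in both groups, at 32.51, 20.99 and 44.67 FPKM with oligomycin and 41.71, 25.91 and 24.78 FPKM with DMSO (log2 change 0.06, adjusted p = 0.882).

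**Figure D2:**
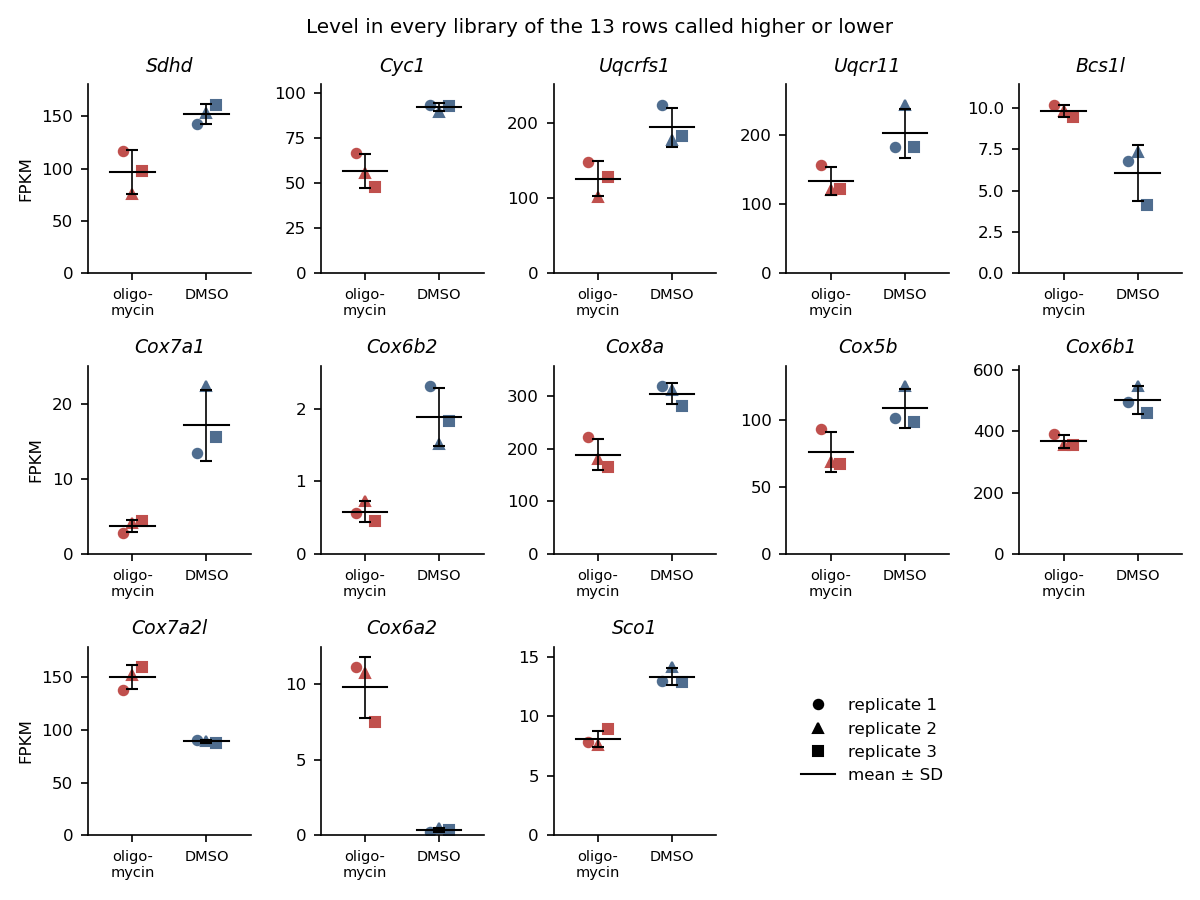
FPKM in every library of the 13 rows called higher or lower, oligomycin left and DMSO right in each panel, with the mean and SD over 3 libraries in black and axes that start at 0. The panels were picked by the call, and groups do not overlap in any of them, nor in 47.3% of all tested genes. The gap is widest, relative to the values, for Cox6a2 (31.1-fold) and Cox7a1 (4.59-fold). Cox6a2 and Cox6b2 passed the filter on low values through 1 group alone.

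Cox6a2 and Cox6a1 encode alternative forms of the same subunit, of which Cox6a2 is the form of heart and skeletal muscle. Cox6a2 (XLOC_019554, chromosome 7, 128173946 to 128206366) had 11.2, 10.7 and 7.51 FPKM with oligomycin, against 0.189, 0.439 and 0.318 FPKM with DMSO. Each oligomycin library held many times the level of any DMSO library, and the means of 9.81 ± 2.004 FPKM with oligomycin and 0.315 ± 0.125 FPKM with DMSO (SD, n = 3 each) differed 31.1-fold. The log2 change was 3.03 (SE 0.18, limma adjusted p = 3.59e-05) with a pseudocount of 1 (adjusted p 8.22e-06 to 0.000431 over all alternatives) and 4.60 with a pseudocount of 0.1. The row's locus also spans Itgad, an integrin gene of myeloid cells on the opposite strand, which RefSeq places at 128173933 to 128205504 and which overlaps Cox6a2 by 70 of its 932 bases. Itgad had no row of its own, the strand of the libraries is not given in the sources used here, and the part of Itgad in the row was not tested. Cox6a1, the form of most other tissues, stood at 327, 224 and 291 FPKM with oligomycin, against 419, 364 and 368 FPKM with DMSO (adjusted p = 0.0646). Cox6a2 thus made up 3.30%, 4.57% and 2.51% of the summed FPKM of the pair with oligomycin, against 0.0450%, 0.120% and 0.0862% with DMSO, and Cox6a1 remained by far the larger part.

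Cox7a1, the heart and muscle form of another subunit, changed the opposite way. Cox7a1 (XLOC_017883, chromosome 7, 30184171 to 30186030) had 2.77, 4.08 and 4.38 FPKM with oligomycin, against 13.5, 22.5 and 15.6 FPKM with DMSO. The highest oligomycin value lay far below the lowest DMSO value. Its mean was 3.74 ± 0.852 FPKM with oligomycin and 17.2 ± 4.71 FPKM with DMSO (SD, n = 3 each). Its log2 change was -1.92 (SE 0.21, limma adjusted p = 0.000425), 4.59-fold lower, and the call held in every alternative tried (adjusted p 0.000122 to 0.00229). Cox7a2, the form of most tissues, had 235, 143 and 182 FPKM with oligomycin and 256, 212 and 191 FPKM with DMSO (log2 change -0.25, adjusted p = 0.351), with overlapping groups. Of the summed FPKM of both, Cox7a1 was 1.17%, 2.78% and 2.35% with oligomycin, against 4.999%, 9.588% and 7.530% with DMSO. Cox6b2, the testis form of Cox6b1, was low throughout, at 0.564, 0.737 and 0.451 FPKM with oligomycin, against 2.32, 1.52 and 1.83 FPKM with DMSO (log2 change -0.86, SE 0.19, adjusted p = 0.0104, 3.23-fold lower). The change of Cox6b2 was -1.54 with a pseudocount of 0.1, and its share of the pair with Cox6b1 was at most 0.466% in all 6 libraries.

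Cox7a2l, related in sequence to Cox7a1 and Cox7a2, encodes a factor described as joining complexes III and IV into a supercomplex. It was counted among the complex IV subunits, and its role in these cultures was not tested. Cox7a2l (XLOC_009258, chromosome 17, 83501917 to 83514333) had 138, 152 and 160.3 FPKM with oligomycin, against 90.1, 89.8 and 87.6 FPKM with DMSO. The DMSO libraries were nearly equal, and every oligomycin library was higher by more than their whole range. Its mean was 150.3 ± 11.2 FPKM with oligomycin and 89.2 ± 1.39 FPKM with DMSO (SD, n = 3 each). Its log2 change was 0.74 (SE 0.11, limma adjusted p = 0.00207, 1.69-fold higher), and the call held in every alternative tried (adjusted p 0.00115 to 0.0142). The ratio of Cox7a2l to Cox7a2 within a library does not depend on the scaling of that library; it was 0.589, 1.07 and 0.882 with oligomycin, against 0.352, 0.424 and 0.458 with DMSO. As a difference of log2(FPKM + 1) the ratio averaged -0.28 ± 0.44 with oligomycin and -1.28 ± 0.19 with DMSO (SD, n = 3 each). These means differed by 1.00 (2-sided exact permutation test, p = 0.1, the smallest that 3 against 3 allow). Members were chosen with earlier results known, and Cox7a2l was already called higher in the same libraries. The permutation test thus adds no separate weight to that call. A 2-sided exact permutation test also gave p = 0.1 for Cox6a2 to Cox6a1 and for Cox7a1 to Cox7a2. For Cox6b2 to Cox6b1 the 2-sided exact permutation test gave p = 0.2. Cox7a2l was higher relative to Cox7a2 in all 3 oligomycin libraries than in any DMSO library.

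**Figure D3:**
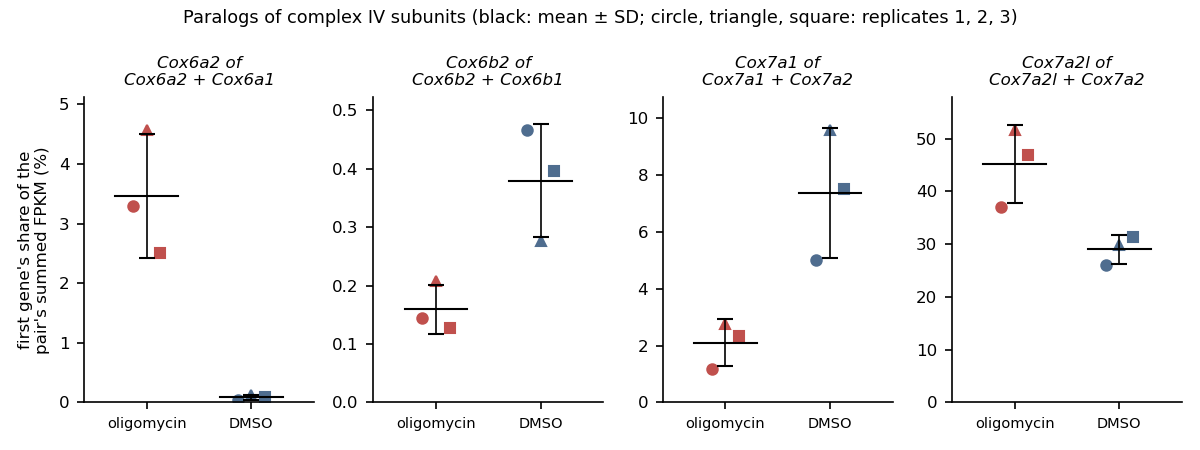
Share of the first gene in the summed FPKM of a pair of complex IV paralogs, in percent, in each library, oligomycin left and DMSO right, with mean and SD over 3 libraries in black and axes that start at 0. Shares of Cox6a2 and Cox7a2l are higher with oligomycin in every library, and those of Cox6b2 and Cox7a1 lower. Cox6b2 was under 5 FPKM in every library. As a difference of log2(FPKM + 1), its ratio to Cox6b1 averaged -7.86 with oligomycin and -7.45 with DMSO (2-sided exact permutation test, p = 0.2).

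Of the 9 assembly factors of complex IV only Sco1 was called (11.1%, against 30.2% of all tested genes in either direction). Sco1 (XLOC_002655, chromosome 11, 67052670 to 67067440), a chaperone that delivers copper to the catalytic core, had 7.79, 7.59 and 8.87 FPKM with oligomycin, against 12.9, 14.2 and 12.9 FPKM with DMSO. Replicates were tight in both groups and did not overlap, and Sco1 fell by 0.66 (SE 0.12, limma adjusted p = 0.00422, 1.65-fold lower), also in every alternative tried (adjusted p 0.00314 to 0.0203). Cox17, which hands copper to Sco1, had 190.2, 159 and 134 FPKM with oligomycin, against 235, 236 and 196 FPKM with DMSO. Its groups did not overlap either, but the log2 change of -0.47 was not called (adjusted p = 0.0528), except without oligomycin replicate 1 (0.0171) or without rows sharing a locus (0.0410; 0.0171 to 0.167 over all alternatives). Cox19 and Cox11, further factors of copper delivery, had log2 changes of -0.27 and -0.16 (adjusted p = 0.134 and 0.461). None of the 3 haem factors was called in limma's test. Cox10, which makes haem O, had 16.2, 13.9 and 10.3 FPKM with oligomycin and 10.6, 10.4 and 10.4 FPKM with DMSO (log2 change 0.32, adjusted p = 0.157); without oligomycin replicate 3 it was called higher (adjusted p = 0.0392; 0.0392 to 0.367 over all alternatives). Cox15, which turns haem O into haem A, and Surf1, which acts in its insertion, had log2 changes of 0.03 and -0.02, and both share their locus with other rows. Cox16, which acts on the assembly of the second mitochondrially encoded subunit, had 26.6, 16.2 and 22.4 FPKM with oligomycin and 18.0, 15.8 and 13.7 FPKM with DMSO (log2 change 0.41, adjusted p = 0.124), and was called higher without oligomycin replicate 2 (0.0228; 0.0228 to 0.320 over all alternatives). Cox18, an insertase for the same subunit, had a log2 change of 0.15.

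The row of Sco2 and Tymp holds a second copper chaperone and a thymidine phosphorylase, whose annotations overlap, so that their shares in it cannot be told apart. It stood at 17.7, 17.7 and 14.3 FPKM with oligomycin, against 7.89, 9.91 and 11.8 FPKM with DMSO, without overlap. That row rose by 0.70 (SE 0.16, limma adjusted p = 0.0122), while Sco1 fell. The row of Ncaph2, a gene that overlaps Sco2 and Tymp in RefSeq, has the same locus. Ncaph2 averaged 53.5 FPKM with oligomycin and 75.5 FPKM with DMSO and was called lower (log2 change -0.48, adjusted p = 0.0279). The part of Ncaph2 in the Sco2 and Tymp row was not tested. Cox4nb, the row matched by name alone, had 9.22, 8.30 and 6.89 FPKM with oligomycin, against 9.83, 12.6 and 11.3 FPKM with DMSO (log2 change -0.43, adjusted p = 0.0541). It was called lower in 3 alternatives, with adjusted p = 0.0381 when oligomycin replicate 1 was left out, 0.0483 when rows of shared loci were, and 0.0369 after quantile normalization (0.0369 to 0.165 over all alternatives).

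Libraries of the oligomycin group did not stand equally low. Averaged over the 9 complex III subunits and expressed as log2 deviation from the mean of the 6 libraries, oligomycin replicates 1, 2 and 3 stood at 0.03, -0.37 and -0.30, against 0.28, 0.23 and 0.13 in DMSO replicates 1, 2 and 3. For the 4 complex II subunits the values were 0.02, -0.28 and -0.17 with oligomycin, against 0.17, 0.15 and 0.12 with DMSO. For the 10 complex IV subunits without isoforms and Cox7a2l they were 0.04, -0.39 and -0.17 with oligomycin, against 0.25, 0.23 and 0.04 with DMSO. Oligomycin replicate 1 thus lay nearest to the DMSO libraries in all 3 complexes, and in complex IV about level with DMSO replicate 3. Of the 27 subunit rows, 16 were lowest in oligomycin replicate 2, 8 in oligomycin replicate 3 and 1 in oligomycin replicate 1. Over all 9986 tested genes, 2329 were lowest in oligomycin replicate 2, 1952 in replicate 3 and 1043 in replicate 1. Oligomycin replicate 2 was also the highest library for 2672 of all tested genes, and for 0 of the 27 subunit rows. The 13 assembly rows averaged 0.06, -0.04 and -0.01 with oligomycin and 0.05, -0.004 and -0.06 with DMSO, so their libraries overlapped. What sets oligomycin replicate 1 apart was not tested.

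**Figure D4:**
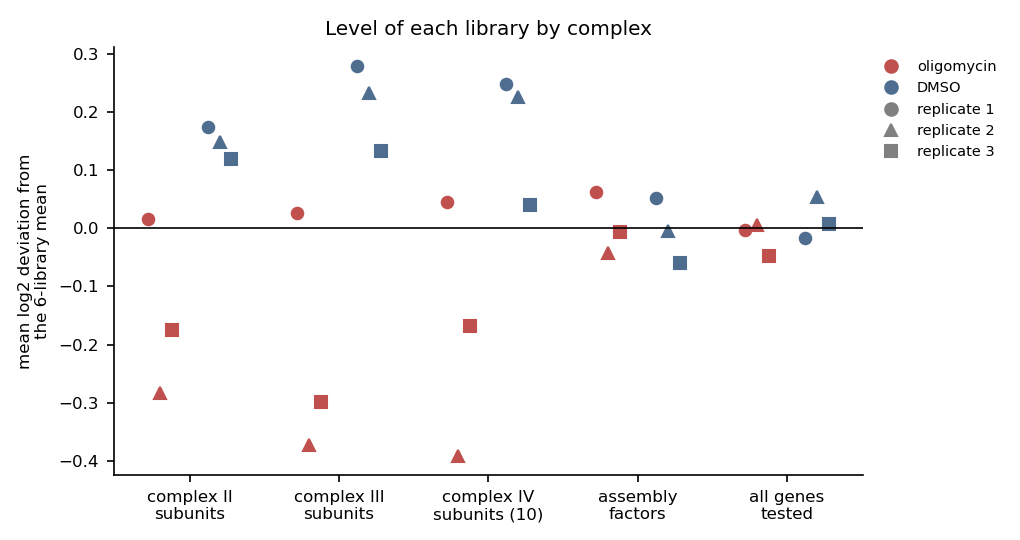
Mean log2 deviation of a library from the 6-library mean, over the subunits of each complex, the assembly factors and all tested genes; oligomycin is left and DMSO right in each block, and marker shapes give the replicate. Oligomycin replicates 2 and 3 lie lowest in complexes II, III and IV, while assembly factors show no such split.

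Other genes of the same complexes were described from a list outside the choice by name. Of 29 further assembly and stability factors 17 had a row, of which 4 fell, 3 rose and 10 were not called, with a median of 0.08. That is 23.5% lower and 17.6% higher, where 16.1% of all tested genes were lower and 14% higher. The share called lower among the 42 rows was much the same, at 23.8%. Higd1a, a hypoxia-induced protein that binds complex IV, had 13.4, 9.10 and 11.3 FPKM with oligomycin, against 26.1, 32.6 and 23.8 FPKM with DMSO (log2 change -1.22, limma adjusted p = 0.00129). Ndufa4, named after complex I but a subunit of complex IV, had 239, 209.8 and 232 FPKM with oligomycin, against 340.2, 354 and 320.3 FPKM with DMSO (log2 change -0.57, adjusted p = 0.00997). Both were lower in every oligomycin library. Hccs, which attaches haem to cytochromes c and c1, fell by 0.63 (adjusted p = 0.0381) and Fastkd3, a mitochondrial RNA-binding protein, by 0.49 (adjusted p = 0.0212). Those that rose were Ttc19, which clears Rieske protein fragments from complex III (log2 change 0.58, adjusted p = 0.0202), Chchd7, a small protein of the intermembrane space (0.54, adjusted p = 0.0299), and Oma1, a stress-activated protease of the inner membrane (0.49, adjusted p = 0.0271). The row of Ttc19 shares its locus with another row.

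Haem is a cofactor of all 3 complexes. Of 7 genes of haem synthesis 3 fell, 1 rose and 3 were not called, with a median log2 change of -0.21. Of all tested genes 16.1% were lower and 14% higher. Cpox, a late mitochondrial enzyme of the pathway, fell to 64.6, 53.6 and 53.2 FPKM with oligomycin, against 89.6, 96.4 and 101 FPKM with DMSO (log2 change -0.74, limma adjusted p = 0.00318). Alad, and Alas1, which makes the first intermediate, fell by 0.48 and 0.39 (adjusted p = 0.0286 and 0.0214). Uros, which closes the tetrapyrrole ring, rose to 9.26, 11.1 and 10.6 FPKM with oligomycin, against 4.77, 3.67 and 5.19 FPKM with DMSO (log2 change 1.04, adjusted p = 0.00150). In each of these 4, which were picked by the call, the groups did not overlap. Over all 7 genes, 57.1% did not overlap, against 47.3% of all tested genes.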

How the data were processed

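Per the labels' protocols, RNA came from RNeasy Plus Mini columns and was made into Illumina libraries. The authors deposited FPKM for 10041 rows in 6 libraries; the submitters' processing notes name Cuffdiff 2.2.1.3, Cuffnorm 2.2.1.1, Cufflinks 2.2.1.0 and TopHat2 2.1.0, and the build GRCm38 (mm10). The role of each tool, annotation, scaling, strand, multi-mapping and filters are left unsaid in the sources used here, and depth is unknown, so no counting interval is given. Columns name the group and a number from 1 to 3 that is in no sample title, so they were mapped to groups only; replicate numbers are these column numbers. Deposited starts are counted from 0 and are printed counted from 1.

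Rows with at least 1 FPKM in at least 3 libraries (9986) were put on the scale log2(FPKM + 1) and fitted by limma (version 3.58.1, in R 4.3.3) with group alone and an intensity trend. Its 2-sided p-values were adjusted by Benjamini and Hochberg's method across the whole table; the pseudocount understates changes of low genes. Fold values are ratios of mean FPKM, and errors are SD over 3 libraries or the SE of the fit. The procedure was tested on simulated data. Members and lists were chosen with earlier results of these data known. Named were all called members, the extremes of each role, complex II subunits, Cycs, isoforms of 1 subunit and called genes of the other lists; Uqcrc1, Cox7c, Cox10, Cox17, Cox4nb and the Sco2 row were given in full after their values were seen. The row 2010107E04Rik, listed at first as a complex III factor, is an ATP synthase gene in RefSeq and was left out. Some genes of the lists outside the 42 rows are not reported here. Alternatives were quantile normalization, a pseudocount of 0.1, a minimum of 5 FPKM or none, no trend, no rows sharing a locus, and each library left out, with the tested genes kept.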

Additional observations from a re-analysis of the deposited data

How the results depend on the processing

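Of the 11 called rows that passed the filter on low values through both groups, 5 kept the call in every alternative (Cox7a1, Cox7a2l, Cox8a, Cyc1 and Sco1). Cox6a2 and Cox6b2, which passed it through 1 group, had to differ and are not counted. No called member changed direction. Quantile normalization left 7 rows lower and 3 higher and moved the medians to -0.087 over all members, -0.0031 for complex II and -0.10 for complex IV, while the median over all genes was 0.03; the cause was not tested. Leaving out 1 library at a time, rows called lower numbered 5 to 18 and higher 2 to 3, the complex IV median lay between -0.31 and -0.14, and over all genes 803 to 1447 were higher and 1086 to 1865 lower (1403 and 1610 with all libraries). Of these fits, the one without DMSO replicate 3 gave the lowest 4 counts, with 823 genes higher without DMSO replicate 1, and the one without oligomycin replicate 1 gave the highest counts of lower and, over all genes, of higher calls. Without rows sharing a locus, where 8817 genes were tested, 14 rows were called lower. The difference of the Cox7a2l to Cox7a2 log2 ratio lay between 0.81 and 1.24. With Cox4nb counted, an alternative added after seeing the data, the complex IV median was -0.26. No paired analysis was possible because nothing in the sources used here ties the table's columns, numbered 1 to 3, to the sample titles, which share 3 other numbers across the groups. Whether equal column numbers mark shared cultures or animals is not known. Depth is unknown, which limits what can be said of Cycs, Cox6b2 and Cox6a2 at low levels.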
